A study of Mus musculus with 2 samples.

Results

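Wide footprints found in both libraries are stretches of open DNA of 25 bp or more that were protected from cleavage in each of 2 DNase-seq libraries of mouse frontal cortex. They were chosen by measured values, namely width and position, as autosomal footprints of replicate 1 that overlapped a replicate 2 footprint of the same minimum width by at least 50% of the length of each. The rule gave 9848 members, which are 71.1% (95% Wilson interval 70.3 to 71.8) of the 13858 wide autosomal footprints of replicate 1 and 48.9% (48.2 to 49.6) of the 20125 of replicate 2. All footprints numbered 170738 and 227460 in the 2 libraries, of which 167054 and 222559 were autosomal. In DNase-seq, the nuclease DNase I cuts accessible DNA in isolated nuclei and the cut ends are sequenced. The tissue came from male mice aged 10 days of the B6CASTF1/J strain, the first-generation cross of C57BL/6J with CAST, and no treatment is named. Both libraries belong to 1 group, labelled as biological replicates 1 and 2. A label note gives 3 males per sample without saying whether they were pooled, and both samples carry the same donor entry. The spread between libraries may therefore be technical.

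A footprint is a short run of bases inside an accessible region that is cut less often than its surroundings, usually because a bound protein shields the DNA. The length of the protected run is known to depend on how much DNA a protein or a cluster of proteins contacts. CTCF, a zinc finger protein that anchors chromatin loops together with cohesin, contacts an unusually long site, while NRF1, nuclear factor I (NFI) and the CREB family bind as dimers to palindromic or near-palindromic sites. SP and KLF zinc finger proteins bind GC boxes in CpG-rich promoters.

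The following members carry the CTCF consensus CCNNNAGNNGGC outside promoters, and they are shown because they differ in how far protection reached on the 5′ side of the match. In each line the sequence spans the union of the footprints of both libraries on the strand that reads the consensus (mm10, sequence from RefSeq GRCm38.p6), with the match in capitals. The first 3 reach far before the match and the last 3 do not.
Intergenic, 8907 bp from the Gm44738 start, chr7:73618505-73618552, minus strand: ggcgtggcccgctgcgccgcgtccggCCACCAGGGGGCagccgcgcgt
Intron of Cdkn1a, chr17:29095626-29095671, minus strand: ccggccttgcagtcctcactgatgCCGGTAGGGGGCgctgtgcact
Intergenic, upstream of Stard10, chr7:101310758-101310805, plus strand: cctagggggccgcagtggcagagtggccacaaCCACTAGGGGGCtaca
Intergenic, upstream of Ptma, chr1:86525455-86525492, minus strand: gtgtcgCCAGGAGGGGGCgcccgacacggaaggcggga
Intergenic, upstream of Sgca, chr11:94979086-94979112, plus strand: gtccaCCACGAGAGGGCgccttcacag
Intron of Nuak1, chr10:84438191-84438223, minus strand: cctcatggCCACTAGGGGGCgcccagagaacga

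Members with other long consensus sequences are shown in the same way, each in a peak of high rank in both libraries. The capitals mark the CTCF consensus, NRF1 (GCGCANGCGC), the cAMP response element (CRE, TGACGTCA), NFI (TGGCNNNNNGCCA), the RFX palindrome (GTNNCCNNGGNNAC) and the palindrome TCTCGCGAGA in turn. The Fxr2 member also holds an NRF1 match, which is not marked.
CTCF, promoter of 9330104G04Rik, chr7:16874982-16875022, plus strand: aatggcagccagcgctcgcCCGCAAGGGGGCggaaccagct
CTCF, promoter of Fxr2, chr11:69632782-69632832, plus strand: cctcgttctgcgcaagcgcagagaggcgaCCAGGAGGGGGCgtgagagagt
NRF1, promoter of Hspa8, chr9:40800926-40800975, plus strand: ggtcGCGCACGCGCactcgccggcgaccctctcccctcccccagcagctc
NRF1, promoter of Eif5a, chr11:69921499-69921545, plus strand: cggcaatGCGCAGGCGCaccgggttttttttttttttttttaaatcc
CRE, near starts of 1110020A21Rik and Ppm1b, chr17:84957636-84957667, plus strand: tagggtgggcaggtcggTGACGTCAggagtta
NFI, promoter of Bahcc1, chr11:120232771-120232801, plus strand: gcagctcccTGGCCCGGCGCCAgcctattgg
NFI, promoter of 2900052L18Rik, chr11:120231678-120231713, plus strand: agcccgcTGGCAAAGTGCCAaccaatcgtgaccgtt
RFX, exon at the Gm14486 locus, chr2:30658539-30658565, plus strand: actccGTTGCCATGGCGACgtggccgc
RFX, the neighbouring member, chr2:30658593-30658642, plus strand: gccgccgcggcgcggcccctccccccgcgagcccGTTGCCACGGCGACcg
Palindrome, promoter of Ncapg, chr5:45669848-45669896, plus strand: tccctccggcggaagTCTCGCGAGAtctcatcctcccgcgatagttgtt

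The footprint list of each library gives positions and 1 p-value threshold of 0.01, repeated in every line, so width is its only measurement per footprint. The median member was 31 bp wide in replicate 1 (quartiles 27 and 37 bp, maximum 80 bp) and 32 bp in replicate 2 (quartiles 28 and 38 bp, maximum 98 bp). The 2 widths of a member differed by a median of 3 bp and by at most 5 bp in 73.8% of members. Over the 9848 members the widths had a Pearson r of 0.613 and a Spearman rho of 0.553, which is a description, since both widths had to pass 25 bp. The overlap covered a median of 87.9% of the union of both footprints. An identical interval in both libraries was found for 683 members (6.94%). Widths of 40 bp or more in both libraries were found for 1169 members (11.9%) and of 50 bp or more for 93 (0.944%).

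**Figure D1:**
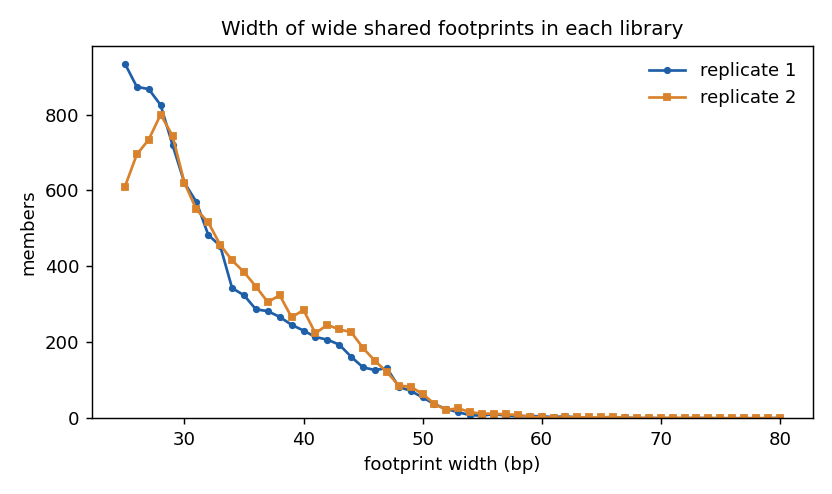
Number of members (y axis) at each footprint width in bp (x axis) in replicate 1 (blue circles) and replicate 2 (orange squares). Counts begin at the threshold of 25 bp and thin out toward large widths, with medians of 31 and 32 bp.

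The threshold cut a continuous range of widths. At 25 bp, the narrowest width inside the rule, 54.0% of 1731 replicate 1 footprints had a replicate 2 partner of 25 bp or more, and at 24 bp, just outside it, 45.2% of 1723 did. Of the wide replicate 1 footprints that are not members, 2566 (18.5% of all wide ones) matched only a narrower replicate 2 footprint, 1144 (8.26%) overlapped one without reaching 50% of each, and 300 (2.16%) overlapped none. Over all autosomal footprints of replicate 1, 39.0% were matched in replicate 2 at any width, a share that is part of the rule and from which nothing is read.

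A second pair of footprint lists of replicate 2, which give positions only, did not enter the rule but comes from the same library. The larger one, of 282603 autosomal footprints, matched 99.2% of the members by 50% of each, and 98.3% were matched at 25 bp or more. The smaller one, of 117913, matched 87.4% of the members and 60.5% at that width. Shared footprints of 7 to 12 bp in both libraries, the comparison class of 19968 called short here, were matched in 90.4% and 31.3%.

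The widest members were mostly promoter footprints. Of the 10 members with the largest smaller width, 9 lay within 1 kb of a transcription start site (TSS) in the annotation, near Leprot, Ccdc66, Ube4b, Rbm27, Cntrl, Bbx, Foxn3, Fbxo8 and H2afj. The remaining one lay 43128 bp from the nearest TSS, and all 73 bases of its replicate 1 footprint were soft-masked as repeat sequence. Sequences of 3 of the promoter members are given as examples. No match is marked in them, so they carry no capitals.
Leprot promoter, chr4:101647207-101647277, plus strand: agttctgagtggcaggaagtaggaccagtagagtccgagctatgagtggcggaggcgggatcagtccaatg
Ccdc66 promoter, chr14:27508491-27508564, plus strand: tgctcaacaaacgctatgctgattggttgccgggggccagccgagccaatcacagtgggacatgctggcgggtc
Foxn3 gene, near a start, chr12:99392117-99392176, plus strand: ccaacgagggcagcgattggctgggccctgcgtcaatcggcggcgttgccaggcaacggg

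The Leprot footprint was 67 bp wide in replicate 1 and 71 bp in replicate 2, and the Ccdc66 footprint 66 and 74 bp. The Foxn3 footprint, in the gene of a forkhead protein, was 60 bp wide in both. The CCAAT box bound by NF-Y, or its reverse complement, was present in the 50 bp window of 5 of these 10 members (Ccdc66, Rbm27, Bbx, Foxn3 and H2afj). All 5 were at promoters. The share was 10.1% (9.53 to 10.7) of all members and 12.8% of members at promoters. The window is shorter than these footprints, and a CCAAT box near the end of the Leprot sequence lies outside it. Only 10 members are counted, so nothing is read from this difference.

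Most members lay at promoters, defined as a midpoint within 1 kb of an annotated TSS. The promoter share was 64.1% (63.1 to 65.0) of members and 58.9% (58.3 to 59.6) of short shared footprints, and intervals here and below cover counting error only. Shared footprints of 13 to 24 bp had a higher share than either, 71.3% (70.5 to 72.0), so the share did not follow width in 1 direction. Over all 65177 footprints shared at any width it was 64.2% (63.8 to 64.6), the same as in members within the intervals. Introns held 15.2% of members and 18.6% of short footprints, and intergenic DNA 18% and 19.5%. Sites beyond 10 kb of a TSS made up 16.7% (16.0 to 17.5) and 22.4% (21.9 to 23.0). Taking every wide footprint of each library alone, the promoter share was 62.9% in replicate 1 and 59.8% in replicate 2, or 61.3% ± 2.18 (SD, n = 2).

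Members at promoters sat mainly just upstream of the start. Of the 6312 promoter members, 77.3% (76.2 to 78.3) were upstream of the nearest TSS, against 57.7% (56.8 to 58.6) of the 11768 short footprints at promoters. The interval from 1 to 100 bp upstream held 46.7% (45.5 to 48.0) and 29.9% (29.1 to 30.7), and the first 100 bp downstream held 14.8% (13.9 to 15.7) and 25.4% (24.6 to 26.2). The median signed distance was -48 bp for members and -15 bp for short footprints. The region just upstream of the start is where general and sequence-specific factors assemble at most mammalian promoters.

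**Figure D2:**
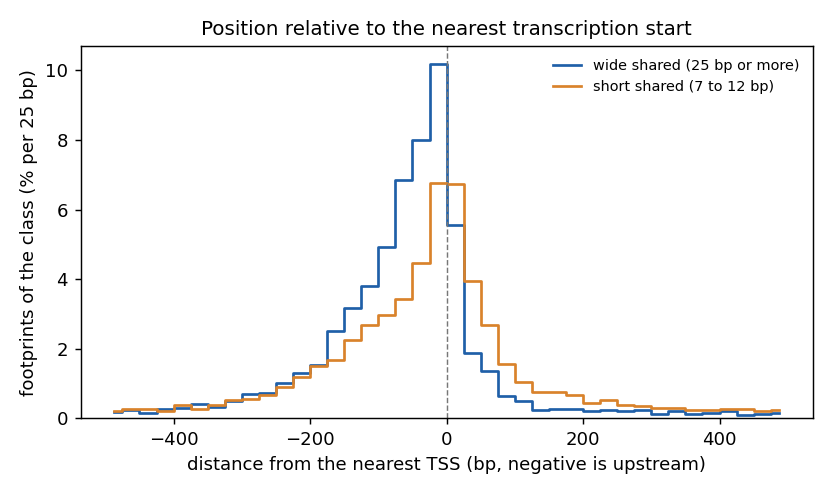
Share of each class per 25 bp (y axis, %) against distance of the footprint midpoint from the nearest TSS (x axis, bp, negative upstream) for wide (blue) and short (orange) shared footprints. The wide curve lies above the short one over the 100 bp upstream of the start (46.7% against 29.9% of promoter footprints) and below it over the 100 bp downstream.

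Members lay in stronger peaks than short shared footprints. The peak lists give each peak a density of cleavages, scaled for sequencing depth by the authors, which was ranked here as a percentile within each library's list of 39608 and 45915 peaks. A peak of both libraries held 85.5% (84.8 to 86.2) of members and 56.4% (55.7 to 57.0) of short footprints. The median rank of the peak around a member was 85.6 in replicate 1 and 87.9 in replicate 2, against 69.0 and 72.4 around short footprints. Around shared footprints of 13 to 24 bp it was 83.5 and 85.6, close to that of members. The median density was 4.63 and 3.15 for members and 2.29 and 1.63 for short footprints. The deposited false discovery rate at the midpoint of a member had a median −log10 of 21.6 and 19.6, against 7.30 and 6.77 for short footprints. Footprints were themselves made from a per-base false discovery rate. These medians are therefore not independent of the rule, and nothing is read from them. Peak density comes from the same libraries as the footprints. By peak rank and density, strength differed between members and short footprints. The part of strength in the contrasts below was not tested beyond the values given.

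Of the 38503 autosomal peaks of replicate 1, 19.4% (7478) held a member. The share went from 0.0837% (3 of 3586 peaks) in the weakest of 10 strength classes, over 10.5% in the fifth class, to 62.5% (2452 of 3924) in the strongest. In the strongest class 23.6% of peaks held 2 or more members, up to 5 in 1 peak. By chromosome, members made up between 4.86% of the replicate 1 footprints of chromosome 14 and 6.65% of those of chromosome 11.

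The promoter contrast turned when only strong peaks were compared. Among footprints in peaks of rank 80 or higher in both libraries, 89.3% (88.4 to 90.1) of 4998 members and 92.2% (91.3 to 93.0) of 3955 short footprints were at promoters. The position relative to the start kept its direction there, with 79.8% (78.6 to 80.9) of promoter members and 67.7% (66.2 to 69.2) of short footprints upstream. This restriction was chosen after seeing the data.

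Sequence in a window around members was richer in G and C than around short footprints. In a window of 50 bp around the midpoint the median GC content was 64.0% for members and 60.0% for short footprints, and the median number of CpG dinucleotides 4 and 2. The difference was present at promoters (70.0% against 66.0%) and beyond 1 kb of a TSS (58.0% against 56.0%), and in peaks of rank 80 or higher (68.0% against 64.0%). Shared footprints of 13 to 24 bp and those of any width had the same median as members, 64.0%. Within the footprint itself the medians had another order, 69.0% for members, 70.0% for short footprints and 72.7% for those of 13 to 24 bp, and the means were 69.1%, 66.8% and 72.0%. The 2 libraries taken alone gave a mean GC content of 65.0% and 64.3% for wide footprints, or 64.7% ± 0.447 (SD, n = 2).

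The CTCF consensus was the most frequent long match. It was found in the 50 bp window of 1980 members, 20.1% (19.3 to 20.9), and of 757 short shared footprints, 3.79% (3.53 to 4.06), a ratio of 5.30. This window, used for all motifs, holds more flanking sequence around a short footprint than around a member. The part of this in the motif shares here and below was not tested. Windows 200 bp to either side of the members held it in 1.27% (1.13 to 1.44). Of the 5478 shared footprints of any width with a match, 36.1% (34.9 to 37.4) were members. All wide footprints of each library alone held a match in 19.3% and 16.4%, or 17.8% ± 2.10 (SD, n = 2).

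The CTCF share depended on position in the genome. Beyond 1 kb of a TSS a match was present in 1346 of 3536 members (38.1%) and in 5.67% of short footprints, and within 1 kb in 634 of 6312 members (10.0%) and in 2.48%. CTCF sites are known to be frequent far from genes, at boundaries of chromatin domains. In peaks of rank 80 or higher in both libraries, most of which were at promoters, the share of members was 8.08% and that of short footprints 1.74%. Beyond 1 kb in such peaks it was 19.8% (16.6 to 23.4) of 536 members and 2.60% (1.32 to 5.04) of 308 short footprints.

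CTCF matches were concentrated at the centre of members and not at the centre of short footprints. In the 10 bp before and after the midpoint, 9.22% and 9.63% of members had the centre of a match, and in the next 10 bp outward 0.772% and 0.711% did. Around short footprints the central 10 bp bins held 0.936% and 0.987%, and the other bins out to 30 bp held 0.957% to 1.05%. Farther out the share was 0.371% and 0.401% in the bins at 35 bp, and 1.05% and 0.952% in those at 75 bp. In 1844 of the 1980 members with a match (93.1%) the match lay wholly inside the footprint of both libraries.

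Protection around the CTCF match was uneven on its 2 sides. Among the 1829 members with exactly 1 match inside both footprints, protection after the match, read on the strand of the consensus, ended at a median of 11 bp in replicate 1 and 10 bp in replicate 2, in a single broad peak. Before the match it ended at 2 preferred distances, with 362 members at 5 bp and 93 at 23 bp in replicate 1, and 308 and 117 at those distances in replicate 2. Only 18 and 19 members ended at 12 bp, between the preferred distances.

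**Figure D3:**
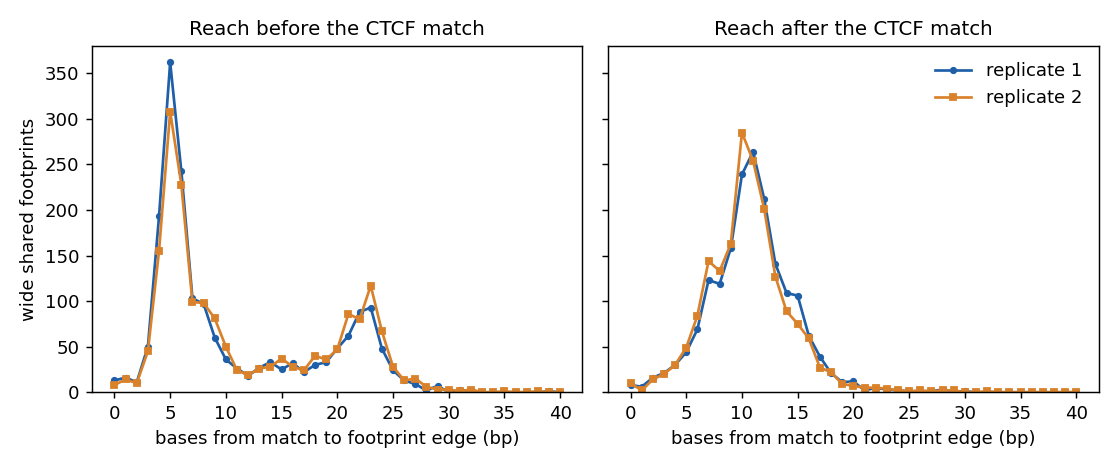
Number of wide shared footprints (y axis) against the distance in bp from the CTCF match to the footprint edge (x axis), before the match (left) and after it (right), in replicate 1 (blue circles) and replicate 2 (orange squares), for 1829 members with 1 match. Before the match both libraries have a peak at 5 bp and another near 23 bp, and after it a single peak at 10 to 11 bp.

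A reach of 15 bp or more before the match in both libraries was found for 425 of the 1829 members (23.2%), and a shorter reach in both for 1077 (58.9%). The other 327 (17.9%) lay on different sides of 15 bp in the 2 libraries. A reach that long after the match was found for 128 members and on both sides for 10. The split was chosen after seeing the distances, so widths and reach of these groups are descriptions. Members with the long reach were a median of 43.0 bp wide in both libraries, against 29 bp in both. Their peaks had a median rank of 72.2 and 74.3, against 64.5 and 67.4, and 35.8% against 29% were at promoters. Past the match, protection ended at a median of 9 bp in both libraries for the long reach and 11 bp for the short. The minimum width of 25 bp requires a longer reach after the match where the reach before it is short. Nothing is therefore read from this difference.

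The 2 kinds of CTCF member differed in the sequence before the match, which the split did not use. At position -12, counted back from the first base of the consensus, 68.7% of long-reach members had T, against 34.5% of short-reach members. C at position -10 was found in 73.4% and 33.5%, G at position -16 in 64.2% and 33.0%, and C at position -15 in 62.8% and 32.2%. At position -30 the commonest base, G, was at 32.2% and 26.2%. The hexamer TGCAGT occurred in the 40 bp before the match in 75 of 425 long-reach members (17.6%) and 31 of 1077 short-reach members (2.88%), and AGTACC in 28 (6.59%) and 4 (0.371%). Both hexamers were taken from those with the largest ratios of long-reach to short-reach share, so their values are a description. As background, a subset of CTCF sites is known to carry a second conserved element upstream of the core, contacted by further zinc fingers of the protein.

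Within the consensus, the free positions were not evenly used. Position 3 was A in 71.1% of the 1829 members, positions 8 and 9 were G in 61.6% and 61.0%, and the base after the match was G in 57.2% and A in 39.5%. On the genome's plus strand lay 913 of the 1829 matches.

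NRF1, a regulator of nuclear genes for mitochondrial and basic cell functions, had a consensus match in 484 members, 4.91% (4.51 to 5.36), and in 0.931% (0.807 to 1.07) of short footprints. Windows 200 bp away held it in 0.381%, and shared footprints of 13 to 24 bp in 3.53% (3.25 to 3.84). Nearly all of these members, 463 of 484, were at promoters, where the shares were 7.34% and 1.50%. In peaks of rank 80 or higher the shares were 8.14% and 2.30%. NRF1 members had a median width of 33.0 and 34.0 bp, with medians of 10 bp protected on each side of the match in both libraries.

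The CRE, the full palindrome bound by CREB and ATF proteins, had the largest ratio to short footprints among the 31 motifs searched. It was found in 191 members, 1.94% (1.69 to 2.23), and in 55 short footprints, 0.275% (0.212 to 0.358), a ratio of 7.04. Of these members 177 were at promoters. Beyond 1 kb of a TSS the shares were 0.396% (14 members) and 0.256%, and their intervals overlapped. In strong peaks the shares were 3.06% and 0.354%. Shared footprints of 13 to 24 bp held the CRE in 1.21% (1.05 to 1.40). Against that class the CRE ratio was 1.60, below those of CTCF (2.88), the palindrome TCTCGCGAGA (2.46) and NFI (1.80).

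NFI proteins, which are needed for glial and neuronal differentiation in the cortex, bind a palindrome with a spacer. It was found in 256 members, 2.60% (2.30 to 2.93), and in 0.506% (0.416 to 0.614) of short footprints, and in windows 200 bp away 34.1 times less often than in members. Most of these members, 172, lay beyond 1 kb of a TSS, where the shares were 4.86% and 0.988%. NFI members were comparatively narrow, with a median of 28.0 bp in replicate 1 and 29 bp in replicate 2. The match lay inside both footprints in 246 of 256.

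Zinc finger motifs of promoters were also more frequent in members than in short footprints. The GC box of SP and KLF factors (GGGCGG) was found in 26.5% (25.6 to 27.3) of members and 12.6% (12.1 to 13.1) of short footprints, and 2 or more copies in 6.22% and 1.40%. The longer GGGGCGGGG was found in 9.03% (8.48 to 9.61) and 1.95% (1.77 to 2.15). The EGR motif GCGNGGGCG, bound by the immediate early proteins of that family and able to overlap GC boxes, was found in 3.32% (2.98 to 3.69) and 1.16% (1.02 to 1.32). Shared footprints of 13 to 24 bp held the GC box in 27.0% and the EGR motif in 3.49%, with intervals that overlapped those of members, and the long GC box in 7.16%. GC content and the amount of flank in the window also differed between the classes, and their part in these shares was not tested. In windows 200 bp away from members the long GC box was 5.74 times and the EGR motif 3.13 times less frequent.

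The palindrome TCTCGCGAGA was rare, with 30 members (0.305%, 0.213 to 0.435) against 18 short footprints (0.0901%, 0.0570 to 0.142), and all 30 were at promoters. The RFX palindrome was found in 85 members (0.863%, 0.699 to 1.07) and 100 short footprints (0.501%, 0.412 to 0.609). The CCAAT box of NF-Y had 10.1% (9.53 to 10.7) and 7.41% (7.05 to 7.78), and the ETS motif CCGGAAG 2.72% (2.42 to 3.06) and 2.06% (1.88 to 2.27). In strong peaks the intervals overlapped for the palindrome (0.560% against 0.303%), the CCAAT box (13.7% against 13.1%) and the ETS motif (4.06% against 4.73%). Beyond 1 kb of a TSS they overlapped for the RFX palindrome (1.16% against 0.671%), the CCAAT box (5.37% against 6.34%) and the ETS motif (0.707% against 0.549%), and at promoters for the ETS motif (3.85% against 3.12%). Shared footprints of 13 to 24 bp held the RFX palindrome in 1.21%, the CCAAT box in 9.30% and the ETS motif in 2.69%, all with intervals that overlapped those of members.

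Motifs of several other families were less frequent in members than in short footprints. The AP-1 site TGANTCA was found in 51 members, 0.518% (0.394 to 0.680), and in 1.06% (0.924 to 1.21) of short footprints. The E-box CAGCTG was found in 2.71% (2.41 to 3.05) and 4.94% (4.65 to 5.25), while the E-box CAGATG of neuronal basic helix-loop-helix proteins had 3.54% and 4.00%, with overlapping intervals. The homeobox core TAATTA was found in 7 members, 0.0711% (0.0344 to 0.147), and in 0.356% (0.282 to 0.448), and the octamer ATGCAAAT in 9 members, 0.0914% (0.0481 to 0.174), and in 0.280% (0.216 to 0.364). In strong peaks the intervals overlapped for AP-1 (0.260% against 0.506%), the homeobox core (0.0600% against 0.0759%) and the octamer (0.120% against 0.228%). They also overlapped at promoters for the homeobox core (0.0634% against 0.170%) and the octamer (0.0951% against 0.221%), and against shared footprints of 13 to 24 bp for AP-1 (0.518% against 0.626%). The E-box CAGCTG stayed below in each of these comparisons. The homeobox and octamer sequences are rich in A and T, and the part of GC content in their shares was not tested.

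Of the 31 motifs, 12 had an interval in members above that of short footprints, 7 below, and 12 overlapped. Among the 12 that overlapped, YY1 (AAGATGGCG) went in opposite directions by position, with 0.349% against 0.714% at promoters and 0.424% against 0.122% beyond 1 kb, and so did the left part of the REST site (CAGCACC), with 0.808% against 1.53% and 2.69% against 1.51%. REST represses neuronal genes outside neurons. Its full consensus GCACCNNGGACAG was found in 2 members only, 0.0203% (0.00557 to 0.0740), and in 0.0250% of short footprints. Both members lay in 1 peak in an intron of Xkr6, and they are shown because they carry the same site in similar flanks.
Xkr6 intron, chr14:63681677-63681710, plus strand: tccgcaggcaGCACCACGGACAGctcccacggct
Xkr6 intron, chr14:63681742-63681770, plus strand: tttgcaggcaGCACCACGGACAGctccct

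**Figure D4:**
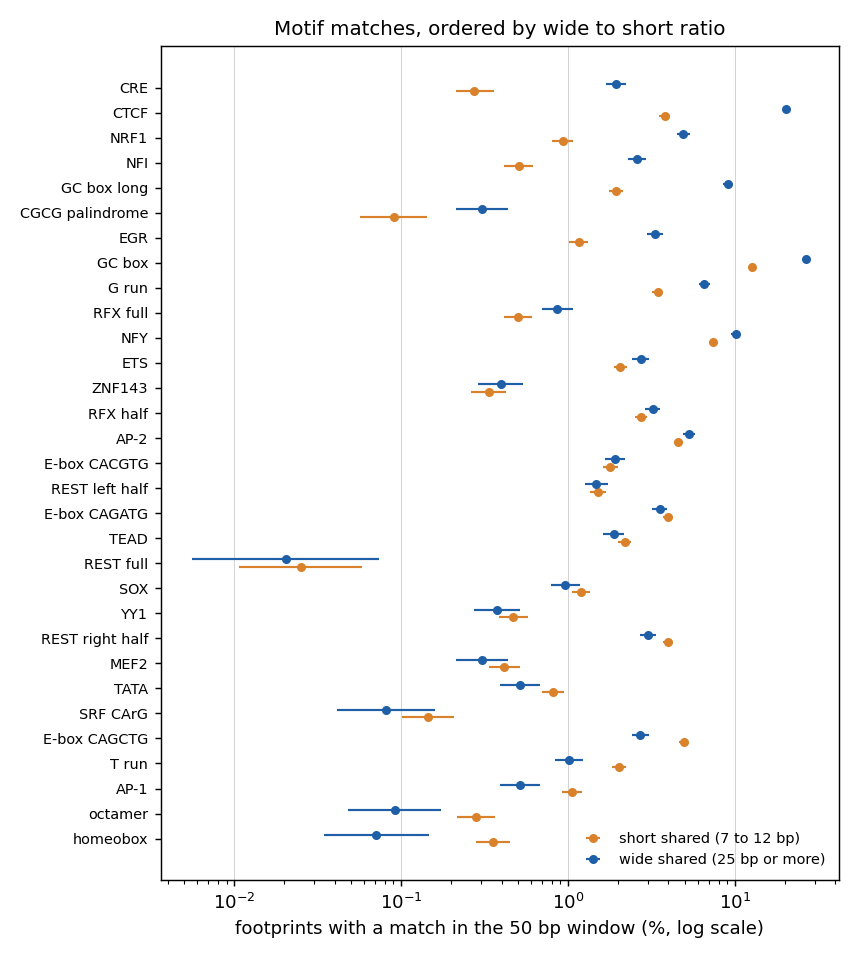
Share of wide (blue) and short (orange) shared footprints with a match to each of 31 motifs in the 50 bp window (x axis, %, log scale), ordered by the ratio of both, with 95% Wilson intervals as bars. CRE, CTCF, NRF1 and NFI stand at the top, with shares of 1.94%, 20.1%, 4.91% and 2.60% in members, and the homeobox core at the bottom.

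Of the 31 motifs, 15 have a consensus of 8 or more positions. None of these was found in 56.0% (55.0 to 57.0) of members and 85.6% (85.1 to 86.1) of short footprints, and 2 or more, which can overlap, in 5.41% and 1.03%. Shares of 8-mers were also compared without a motif list. The 367 8-mers considered were those present in at least 1% of member windows, and 350 of them had a ratio to short windows above 1. They were admitted by their share in members, so the ratios are a description. The largest ratios were 8.66 for CAGGGGGC (6.24% against 0.721%) and 7.04 for TGACGTCA, the CRE itself. The other 8 of the first 10 were AGGGGGCA, AGGGGGCG, CCAGGGGG, GCCCCCTA, AGGTGGCG, ACCAGGGG, GACGTCAC and AGCGCCAC, with ratios from 5.90 to 7.02.

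Motif shares followed width in different ways. Shared footprints were placed by the smaller of their 2 widths, so that those of 25 bp or more are the members. Beyond 1 kb of a TSS the CTCF share was 6.01% at 7 to 9 bp, 19.2% at 17 to 20 bp, 35.4% at 25 to 29 bp and 49.0% (74 of 151) at 45 bp or more. At promoters it was 2.49%, 4.26%, 10.4% and 17%. The NFI share beyond 1 kb was highest at 21 to 24 bp (6.53%) and 25 to 29 bp (6.45%), and was 0.662% (1 of 151) at 45 bp or more. The NRF1 share at promoters was 1.54% at 7 to 9 bp, 7.13% at 21 to 24 bp, 6.16% at 25 to 29 bp and 9.08% at 35 to 39 bp. The CRE share at promoters was 0.327%, 2.32%, 2.59% and 3.82% in those classes and 1.14% at 45 bp or more. The RFX palindrome, over all positions, was highest at 21 to 24 bp (1.33%), below the threshold of the rule.

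**Figure D5:**
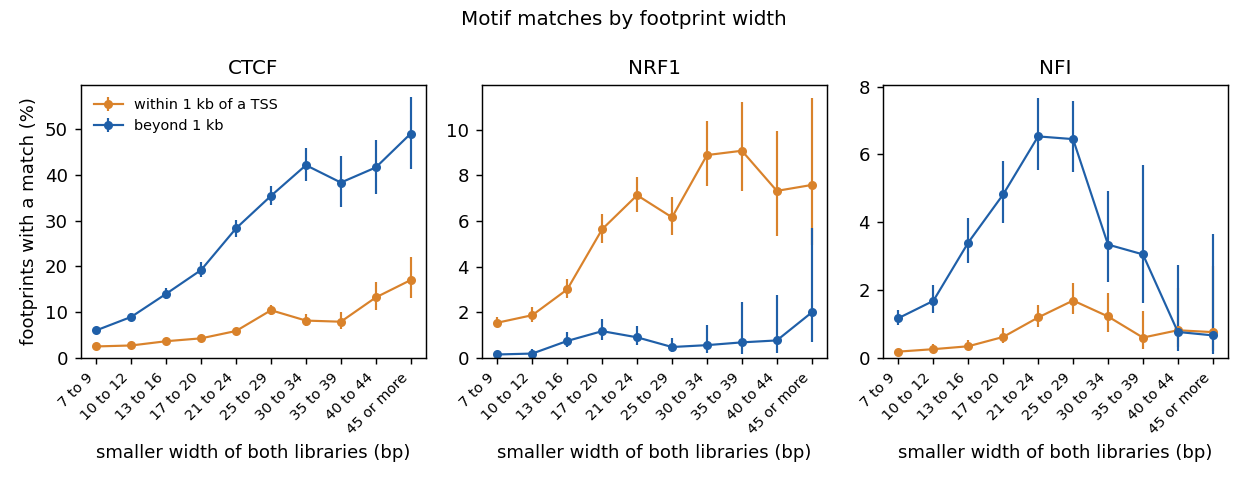
Share of shared footprints with a CTCF, NRF1 or NFI match (y axis, %) by the smaller of both widths (x axis, bp), within 1 kb of a TSS (orange) and beyond it (blue), with 95% Wilson intervals. The CTCF share beyond 1 kb goes from 6.01% to 49.0%, the NRF1 share is higher at promoters, and the NFI share beyond 1 kb is highest between 21 and 29 bp.

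Genes with a member within 1 kb of a TSS numbered 4744 of 20780 autosomal protein-coding genes (22.8%), and 34 genes had 5 or more. The 10 genes with most members were Cic, H2-DMa and Sertad2 with 7 each, and Actb, Brd2, Ephb3, Gm10718, Ing1, Jun and Mark2 with 6 each. Cic encodes a transcriptional repressor, Actb the cytoplasmic beta-actin, Brd2 a bromodomain protein that binds acetylated histones, Ephb3 an ephrin receptor, Ing1 a reader of histone methylation and Mark2 a kinase of microtubule-associated proteins. H2-DMa and Brd2 overlap on chromosome 17 and shared 6 members. The 6 members at Gm10718 were wholly soft-masked repeat sequence. These genes have between 1 and 21 annotated starts, and a gene with more starts covers more sequence.

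Jun, the gene of an AP-1 subunit induced by stimulation of cells, has 1 annotated start and 6 members in its promoter. They lay at 34 bp downstream and 37, 94, 159, 218 and 286 bp upstream of the start, and were 29, 34, 36, 40, 33 and 30 bp wide in replicate 1 and 33, 34, 36, 47, 31 and 27 bp in replicate 2. The peak that held the 3 members nearest to the start on the upstream side had a density of 16.0 in replicate 1 and 15.5 in replicate 2, at ranks 99.4 and 99.9. The upstream members are shown on the minus strand, from which Jun is read, because protein sites known from this promoter lie in some of them. Capitals mark a MEF2 consensus (CTANNNNTAG), 2 variants of the AP-1 site (TGACATCA and TTACCTCA) and GC boxes. These elements were chosen after the members were seen. The member 218 bp upstream holds none of them, and 26 of its bases in replicate 1 are soft-masked. Other matches are not marked, among them the RFX palindrome 94 bp upstream and the ZNF143 consensus CCCANNATGC 286 bp upstream.
Jun, 37 bp upstream, chr4:95052242-95052275, minus strand: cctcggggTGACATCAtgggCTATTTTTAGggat
Jun, 94 bp upstream, chr4:95052298-95052334, minus strand: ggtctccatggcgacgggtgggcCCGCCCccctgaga
Jun, 159 bp upstream, chr4:95052359-95052405, minus strand: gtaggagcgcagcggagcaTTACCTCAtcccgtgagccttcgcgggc
Jun, 218 bp upstream, chr4:95052423-95052456, minus strand: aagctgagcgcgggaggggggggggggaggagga
Jun, 286 bp upstream, chr4:95052493-95052522, minus strand: cagcccacaatgcaccGGGCGGgccgggaa

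The member 37 bp upstream had identical borders in both libraries and held the MEF2 site and the first AP-1 variant together. The variant TGACATCA was found in 33 members (0.335%, 0.239 to 0.470) and 38 short footprints (0.190%, 0.139 to 0.261), and TTACCTCA in 8 members (0.0812%) and 15 short footprints (0.0751%). The intervals overlapped for both. An antisense gene, Junos, overlaps all 6 members.

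Gene lists differed in how many genes had a member, against the 22.8% of all protein-coding genes. Of the housekeeping genes, 14 of 16 had one, led by Actb (6), Hsp90ab1 (4), Ubb and Ywhaz (3 each), while B2m and Sdha had none. Of 23 genes encoding factors of the searched motifs, 18 had one, among them Zfp143 (3) and Ctcf (2), and of 8 genes of chromosome structure 6 did, with 2 each at Ctcf, Smc3 and Stag1. Of 20 immediate early genes 11 had one, led by Jun (6), Junb and Dusp1 (3 each), and none was found at Fos, Egr2 or Nr4a2. Of 20 cortex regulators 8 had one, with 2 at Nfia and 1 each at Emx2 and Pax6, among others. Of 18 pan-neuronal genes 4 had one (Dlg4, Mapt and Vamp2 among them), a share of 22.2%, close to that of all genes. Of 10 hindbrain genes none had one.

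As a check of the tissue label, the promoters of 3 of 6 markers of cortical excitatory neurons (Neurod2 and Camk2a among them) had a peak in both libraries, as did 2 of 5 of interneurons, 2 of 5 of astrocytes, 3 of 6 of the oligodendrocyte lineage, 1 of 6 of microglia and 1 of 4 of endothelial cells. None of 5 hindbrain and 4 erythroid markers had one. The share over all promoters is not given here, so these few counts describe the markers and do not test the label. Bulk tissue mixes these cells, and from which of them a footprint comes was not tested.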

How the data were processed

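Deposited interval lists of 2 DNase-seq libraries were used, made per library on mm10. Per the text lists deposited with the samples, footprints came from filtered alignments and a per-base false discovery rate. No aligner or footprint caller is named in the sources used here. The footprint lists carry only a p-value threshold of 0.01 deposited by the authors. The deposited per-base p-value track holds false discovery rates under 0.05. Peaks carry the authors' deposited signal, a read-depth normalised cleavage density, in whole multiples of 1 step per library (100% within 0.05 of a step), which put replicate 2 at 1.64 times the depth of replicate 1. The shorter of the alignment-derived peak lists of each library was used. Absolute depth is not given by these values. The −log10 scores of the deposited hotspot lists were not used. For footprints found in both, the partner with the largest overlap was taken.

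Motifs were searched on both strands in 50 bp windows around midpoints in GRCm38.p6, with genes from GENCODE vM21. An F1 cross mapped to 1 reference can favour that allele, which was not examined. The search for consensus sequences of 10 or more positions and the overlap rule were tested on simulated data, and the other steps were not. Python 3.11.15, numpy 2.4.6, pandas 2.3.3, scipy 1.17.1 and matplotlib 3.10.9 were used. No test was run over regions, and shares carry 95% Wilson intervals. The members, gene lists and motifs were chosen with earlier results of these data known. Named members were, by rule, the 10 widest, the 2 in the strongest peaks for each of 8 motifs, the 10 genes with most members, up to 4 genes per list and the 10 leading 8-mers. A few items this rule picks are left out of the text and not reported here. Other names (the CTCF members outside promoters, the next members with a printable sequence, the Jun elements, genes without a member and members of short lists) were chosen after values were seen. Alternatives changed the width, overlap, window, promoter size, library, peak, repeat and comparison class.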

Additional observations from a re-analysis of the deposited data

How the results depend on the processing

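With 2 libraries, 1 tissue and no untreated or other group, these values describe this material. The number of members was 17995 at a minimum width of 20 bp, 4494 at 30 bp, and between 13858 and 20125 in a single library. Of the values without a test, the promoter share was 68.2% at 30 bp, 59.8% and 70.4% with promoter windows of 500 and 2500 bp, and between 59.8% and 62.9% in a single library. Mean GC content, 65.3% in members, was 65.9% at 30 bp, 69.1% in 30 bp windows and in the footprint itself, 62.0% in 100 bp windows, and between 64.3% and 65.0% in a single library. The CTCF share was 16.7% at 20 bp, 10.0% within and 38.1% beyond 1 kb of a TSS, and between 16.4% and 19.3% in a single library. With peaks of rank 80 or higher, chosen after seeing the data, 4998 members were left, with 89.3% at promoters, 68.3% GC and 8.08% with CTCF. Against shared footprints of 13 to 24 bp, 7 of 31 motifs were above and 3 below, in place of 12 and 7. Among members in a peak of both libraries, the median of the smaller peak rank was 85.5. Among members in a peak of the library concerned, the median rank was 85.6 in replicate 1 and 87.9 in replicate 2. An overlap of 1 bp, peaks of both libraries, unmasked footprints or the other lists of replicate 2 kept the number of members within 1.5 times and moved the promoter, GC and CTCF values by less than the spread of the libraries. No motif whose intervals were apart in the main comparison had them apart in the opposite direction at promoters, beyond 1 kb, in strong peaks or against the 13 to 24 bp class. Of those that overlapped, YY1 and the left REST part parted in opposite directions by position, as given above, and CAGATG, lower in members than in short footprints, was 3.54% in members and 2.83% at 13 to 24 bp. No paired analysis was possible because the samples form 1 group.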
